A study of Homo sapiens with 44 samples.

Results

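The genes described here are 32 human genes of cholesterol and sterol homeostasis, taken by name from a list of pathway genes. They comprise 7 genes of the mevalonate arm, 12 of the squalene and sterol steps, 5 of sterol sensing and transcription, 2 fatty acid enzymes, and 6 of trafficking, efflux and receptor turnover. The genes were chosen with earlier results of these data known. All 32 were found among 58735 Ensembl genes in the read count table and among 27315 gene symbols in a table of variance-stabilised values. Expression was measured by sequencing of polyA RNA from 2 human triple-negative breast cancer lines, MDA-MB-231 and the inflammatory line SUM149. Short interfering RNA (siRNA) was delivered at 20 nM, and RNA was taken 48 h later. In the siRel experiment, MDA-MB-231 cells received a control siRNA, siRelA or siRelB, against the NF-kB subunits RELA and RELB. In the siEZH2 experiment, MDA-MB-231 and SUM149 cells received a control siRNA or siEZH2, against EZH2, the histone methyltransferase of Polycomb repressive complex 2. Each of the 7 groups held 2 libraries, which the submitters describe as biological duplicates. Whether each siRNA was 1 sequence or a pool is not given in the labels.

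Cells make cholesterol from acetyl-CoA through mevalonate, isoprenoids, squalene and lanosterol, and HMGCS1, SQLE and DHCR7 catalyse an early, a middle and the last step. The transcription factors SREBF1 and SREBF2 are escorted from the endoplasmic reticulum by SCAP when sterol is scarce and switch on most genes of the pathway. INSIG1 and INSIG2 hold SCAP back when sterol is plentiful, and INSIG1 is itself a target of the SREBFs. Excess sterol activates the liver X receptors, which switch on the efflux transporters ABCA1 and ABCG1 and the ubiquitin ligase MYLIP. NPC1 and NPC2 move cholesterol out of lysosomes.

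The upstream sequences below are shown because 4 of these genes, INSIG1, HMGCS1, DHCR7 and SREBF2, are pathway genes that fell together under siEZH2 in SUM149, while LBR and ABCA1 rose there. The RefSeq promoter table (GRCh38.p14) matched 27 of the 32 genes by symbol, with 34 windows of 250 bases before to 50 bases after a start. ACAT2, FASN, FDFT1, SQLE and ABCG1 had no entry. Each sequence is the stretch of the 250 bases before the first-listed start that lies in no exon of the gene in GENCODE v44, written 5′ to 3′ on the gene's strand. Capitals mark the NF-Y box (CCAAT), the E-box (CACGTG) and the core of the sterol regulatory element (TCACNCCAC), searched on both strands.
INSIG1, chr7:155297628-155297775, plus strand: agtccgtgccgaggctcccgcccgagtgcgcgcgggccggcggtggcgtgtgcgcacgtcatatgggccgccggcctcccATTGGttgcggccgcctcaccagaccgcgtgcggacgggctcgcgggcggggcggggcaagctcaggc
HMGCS1, chr5:43313513-43313662, minus strand: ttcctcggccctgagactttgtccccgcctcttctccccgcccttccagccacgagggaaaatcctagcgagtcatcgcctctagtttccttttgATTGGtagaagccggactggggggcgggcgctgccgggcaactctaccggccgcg
DHCR7, chr11:71448436-71448643, minus strand: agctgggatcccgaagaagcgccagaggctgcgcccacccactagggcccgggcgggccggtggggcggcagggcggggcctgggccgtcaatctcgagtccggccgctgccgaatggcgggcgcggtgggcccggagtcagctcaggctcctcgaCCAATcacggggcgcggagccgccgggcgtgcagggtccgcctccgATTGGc
SREBF2, chr22:41832855-41833104, plus strand: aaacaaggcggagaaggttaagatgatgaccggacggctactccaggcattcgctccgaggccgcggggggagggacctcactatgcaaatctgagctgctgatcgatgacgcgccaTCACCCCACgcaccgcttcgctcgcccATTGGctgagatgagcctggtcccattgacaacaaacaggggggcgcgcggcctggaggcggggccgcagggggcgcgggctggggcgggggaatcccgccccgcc
LBR, chr1:225428926-225429071, minus strand: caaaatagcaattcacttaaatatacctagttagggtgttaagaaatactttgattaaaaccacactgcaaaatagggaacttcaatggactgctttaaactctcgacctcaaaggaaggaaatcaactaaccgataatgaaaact
ABCA1, chr9:104928156-104928405, minus strand: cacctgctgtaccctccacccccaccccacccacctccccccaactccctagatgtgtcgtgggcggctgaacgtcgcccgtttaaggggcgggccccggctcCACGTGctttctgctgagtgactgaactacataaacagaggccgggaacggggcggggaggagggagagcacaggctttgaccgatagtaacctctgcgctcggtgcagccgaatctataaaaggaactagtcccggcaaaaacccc

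Over the whole windows, the NF-Y box was present in 19 of the 27 matched genes (70.4%) and in 39.72% of all 27305 genes in the promoter table. The E-box was present in 5 of 27 (18.5%), namely ABCA1, INSIG1, LSS, SC5D and SCAP, against 8.77% of all genes. The sterol regulatory element core was present in SREBF2 alone among the 27 genes (3.7%), against 1.39% of all genes, and began 133 bases before its start. The core as spelled is narrower than the sites that SREBFs are known to bind. NPC2 and MYLIP, which were called higher under siEZH2 in SUM149, held the NF-Y box too. The sequences above were picked by direction of change, so they cannot show whether a motif goes with that direction. These letter matches describe the windows and were not tested for binding.

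Library totals in the count table ran from 18.6 to 24.4 M reads, the 2 siRelB libraries being the smallest. The table of the siEZH2 experiment holds no counts. Its values were turned back to the scale of normalised counts, from which totals of about 17.4 to 38.1 M reads were recovered. The targeted genes followed the labels. RELA had 154 and 150 CPM (read counts scaled to a common library size) in the control and 10.7 and 12.5 CPM under siRelA. RELB had 39.8 and 40.4 CPM in the control and 4.77 and 5.40 CPM under siRelB. RELB was also at 15.3 and 13.4 CPM under siRelA. Under siEZH2 RELB was called lower in both lines. It went from 632 and 589 to 184 and 206 normalised counts in MDA-MB-231 and from 553 and 440 to 281 and 293 in SUM149. The part of these RELB falls in the changes below was not tested. EZH2 was called lower under siEZH2 in both lines. It went from 3022 and 3020 to 368 and 298 normalised counts in MDA-MB-231. In SUM149 it went from 2563 and 2746 to 442 and 517. On the variance-stabilised log2 scale, which understates such falls, the changes were -2.5155 in MDA-MB-231 and -2.0026 in SUM149. ESR1 and PGR stood under 1 CPM in every library of the siRel experiment and at 0 in MDA-MB-231 in the siEZH2 experiment. ERBB2, the other receptor gene checked, was at 84.1 and 88.2 CPM in the siRel controls. In the siEZH2 controls it was at 1613 and 1793 normalised counts in MDA-MB-231 and at 350 and 348 in SUM149. It was called lower under siRelB (-0.27, log2). Under siEZH2 it was called higher in MDA-MB-231 (0.33) and SUM149 (0.36), on the stabilised scale. The libraries labelled SUM149 had 116 and 102 normalised counts of the epithelial cadherin CDH1 in the controls against 62193 and 64843 of VIM and 200019 and 218257 of FN1, both mesenchymal genes. KRT5, a basal keratin, was at 1015 and 1027 there and KRT14 at 1.64 and 0, and the fibroblast gene DCN was at 2024 and 2201 while COL1A2 and LUM were at 0. EPCAM was at 1594 and 1460 in these controls and at 175 and 166 under siEZH2. So CDH1 and KRT14 were low in these libraries, and "SUM149" below means the libraries so labelled. CD3E, ADIPOQ and LEP were at 0 in every library.

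Levels of the 32 genes were ordered within the MDA-MB-231 control libraries of the siRel experiment as TPM (abundance scaled to exon length and library size). NPC2, which binds cholesterol in the lysosome, was highest at 212 ± 8.72 TPM (SD, n = 2). EBP, the sterol isomerase, followed at 173 ± 3.91 TPM, then the fatty acid desaturase SCD at 164 ± 2.08 and the fatty acid synthase FASN at 149 ± 2.79. FASN and ACAT2 (145 ± 6.56 TPM), the cytosolic thiolase at the entry of the pathway, were within their spread of each other. Among the sensors, INSIG1 stood at 85.7 ± 9.17 TPM, SREBF2 at 73.5 ± 3.68, SCAP at 65.8 ± 3.94, SREBF1 at 45.3 ± 4.24 and INSIG2 at 30.5 ± 2.22. The rate-setting squalene epoxidase SQLE was at 21.0 ± 2.02 TPM, close to MVD at 21.9 ± 0.764 and SC5D at 20.2 ± 2.33. HMGCS1, the HMG-CoA synthase, was at 15.5 ± 0.0650 TPM. ABCA1 (3.55 ± 0.559 TPM) and ABCG1 (0.165 ± 0.0820 TPM) were the lowest of the 32 genes. CYP51A1, the lanosterol demethylase, was at 4.48 ± 0.168 TPM, but its level is uncertain. Its exons overlap 4 other annotated genes, and it had only 120 and 117 reads in these libraries against 4370 and 4061 normalised counts in the other table.

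**Figure D1:**
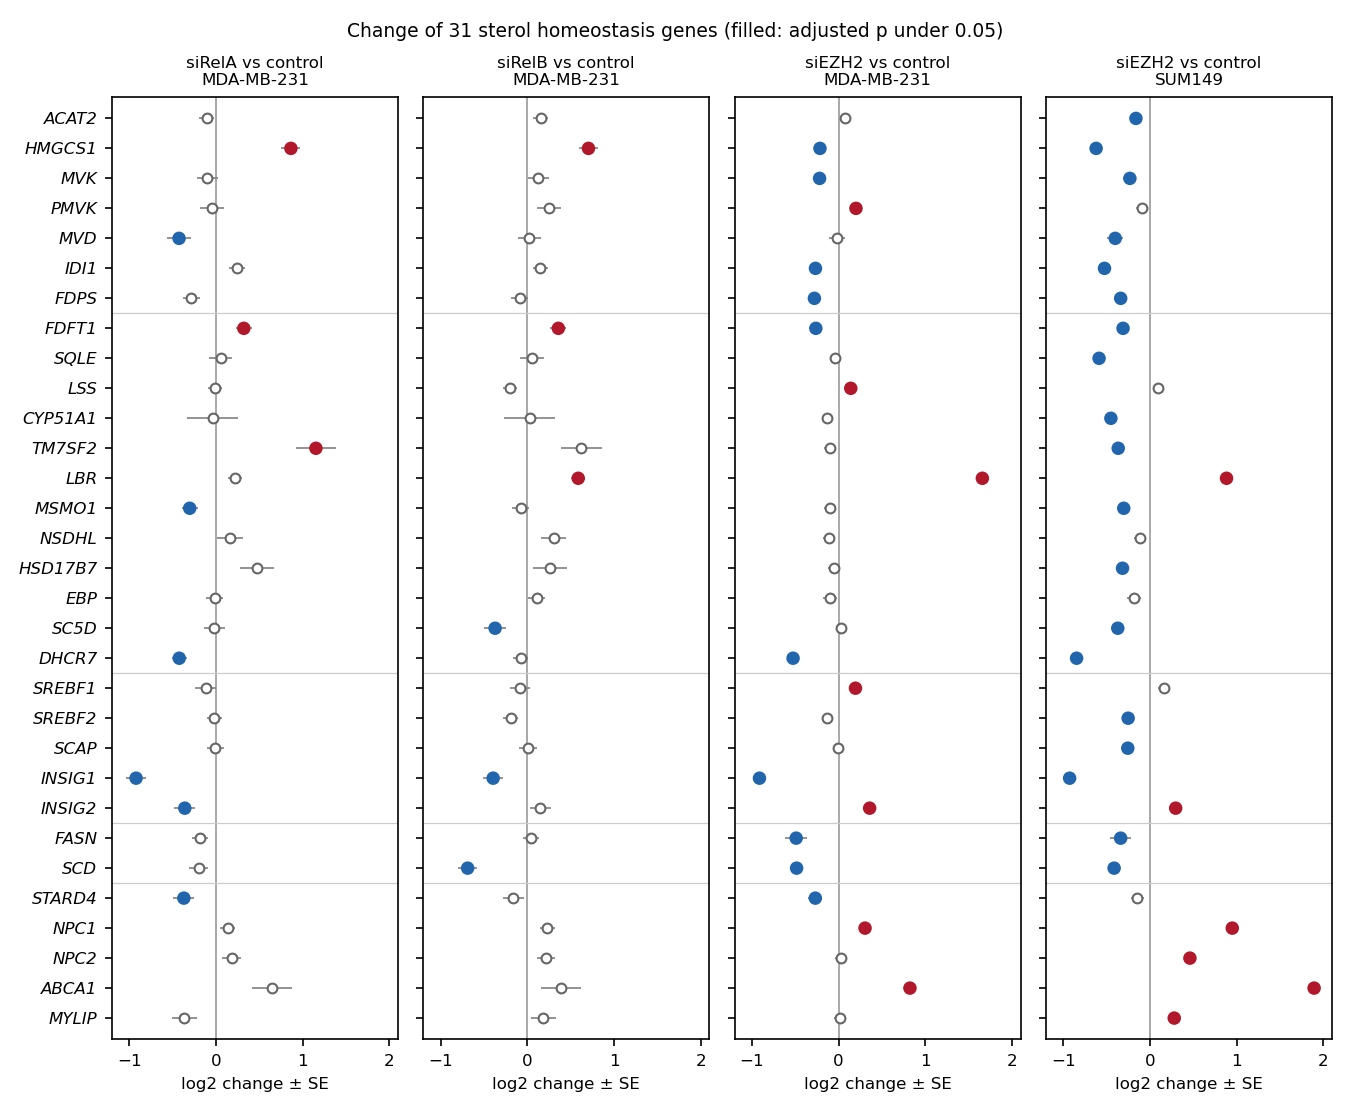
Log2 change against control (x axis, ± standard error) of the 31 genes tested (y axis, grouped by role from the mevalonate arm at the top to trafficking and efflux at the bottom) in 4 knockdowns. Filled points passed an adjusted p under 0.05. INSIG1 lies left of 0 in all 4 panels, HMGCS1 lies right of 0 under siRelA and siRelB and left of 0 under siEZH2, and the point farthest to the right under siEZH2 is LBR in MDA-MB-231 and ABCA1 in SUM149.

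Knockdown of RELA in MDA-MB-231 moved 9 of these genes, and not in a shared direction. HMGCS1 rose 1.82-fold and the sterol reductase TM7SF2 2.23-fold, while INSIG1 fell to about the same degree and DHCR7, which makes cholesterol from its last precursor, fell by less. Of the 31 genes tested, 3 rose and 6 fell (adjusted p under 0.05, edgeR quasi-likelihood test). Among all 15930 genes tested 19.0% were called, 8.82% higher and 10.2% lower. So 3 of 31 is near the share of higher calls, and 6 of 31 is a larger share than that of lower calls. These are counts without a test of the list, which was chosen with earlier results of these data known. The median change of the 31 genes was -0.02 (log2) and that of all genes 0.02. ABCG1 did not pass the filter on low counts.

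In the mevalonate arm, HMGCS1 was at 29.1 and 27.7 CPM in the controls and at 50.9 and 52.4 CPM under siRelA. The groups did not overlap, and the change was 0.87 ± 0.11 (log2 ± SE, adjusted p = 2.8e-05). MVD, the decarboxylase that makes isopentenyl diphosphate, fell by 0.43 ± 0.13 (adjusted p = 0.034). The other 5 genes of the arm (ACAT2, MVK, PMVK, IDI1 and FDPS) were not called, with changes from -0.28 to 0.25.

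Among the squalene and sterol steps, TM7SF2, one of the sterol C14 reductases, was at 5.30 and 4.02 CPM (123 and 91 reads) in the controls and at 10.2 and 10.6 CPM (251 and 233 reads) under siRelA. Both siRelA values lay above both controls, with a change of 1.15 ± 0.23 (adjusted p = 0.0017). FDFT1, the squalene synthase, rose by 0.32 ± 0.09 (adjusted p = 0.019). DHCR7 fell by 0.42 ± 0.09 (adjusted p = 0.0026) and the sterol methyl oxidase MSMO1 by 0.30 ± 0.09 (adjusted p = 0.033). SQLE was at 24.0 and 26.0 CPM in the controls and at 26.2 and 25.7 CPM under siRelA. These ranges overlapped, with a change of 0.05 ± 0.14. The remaining 7 genes of these steps were not called.

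In the sensing group, INSIG1 was at 95.7 and 77.9 CPM in the controls and at 49.0 and 42.6 CPM under siRelA. It fell by 0.92 ± 0.12 (adjusted p = 2.7e-05), with no overlap. INSIG2 fell by 0.36 ± 0.12 (adjusted p = 0.047). The transcription factors and their escort were not called. SREBF1 was at 113 and 93.8 CPM in the controls and at 106 and 84.3 CPM under siRelA. SREBF2 was at 162 and 165 CPM against 170 and 154 CPM. SCAP was at 123 and 107 CPM against 122 and 107 CPM. The 3 genes overlapped between the groups, and their changes were -0.12, -0.02 and -0.01.

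Among trafficking and efflux genes STARD4, a sterol carrier, fell by 0.37 ± 0.12 (adjusted p = 0.041). ABCA1 was at 10.2 and 12.0 CPM in the controls and at 22.5 and 12.2 CPM under siRelA. The first siRelA library stood apart from the other 3, and the change of 0.65 ± 0.23 was not called (adjusted p = 0.059). Without that library it was 0.12. It was called without siRelA replicate 2 (1.01), with upper-quartile scaling (0.69), with no filter on low counts (0.63) and with only the 4 libraries compared (0.65). NPC1, the lysosomal cholesterol transporter, was at 138 and 145 CPM against 163 and 148 CPM, a change of 0.13 ± 0.09 that was not called. FASN and SCD were not called, at -0.18 and -0.20. SCD moved with the library left out, from -0.01 without siRelA replicate 2 to -0.44 without siRelA replicate 1, where it was called. FASN ran from -0.07 to -0.34 and was called without the same library. FDPS, in the mevalonate arm, was called in 5 of the 12 alternatives (-0.37 to -0.22 over all 12). The summed level of 5 fibroblast markers was between 42.7 and 45.1 CPM in the controls and between 66.5 and 80.4 CPM under siRelA, with DCN at 0 in both, and its part in these changes was not tested.

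HMGCS1, TM7SF2, INSIG1 and DHCR7 kept their calls under all 12 alternatives. With upper-quartile scaling 6 of the genes were called higher and 2 lower. Among all genes that scaling called 1677 higher and 1389 lower, in place of 1405 and 1626. The larger share of lower calls among the 31 genes, given above, did not hold with it. The calls of FDFT1 and INSIG2 were lost without any 1 of the 4 libraries compared, with values of 0.25 to 0.38 and of -0.44 to -0.31. MVD was lost without either control (-0.43 and -0.44) or without siRelA replicate 2 (-0.30), MSMO1 without either control or siRelA replicate 1 (-0.27), and STARD4 without control replicate 2 (-0.21) or siRelA replicate 2 (-0.31). With upper-quartile scaling the calls of MVD, MSMO1, INSIG2 and STARD4 were lost. In all, INSIG2 lost its call under 8 of the 12 alternatives, of which 4 left out a library. FDFT1, MVD, MSMO1 and STARD4 each lost theirs under 4.

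**Figure D2:**
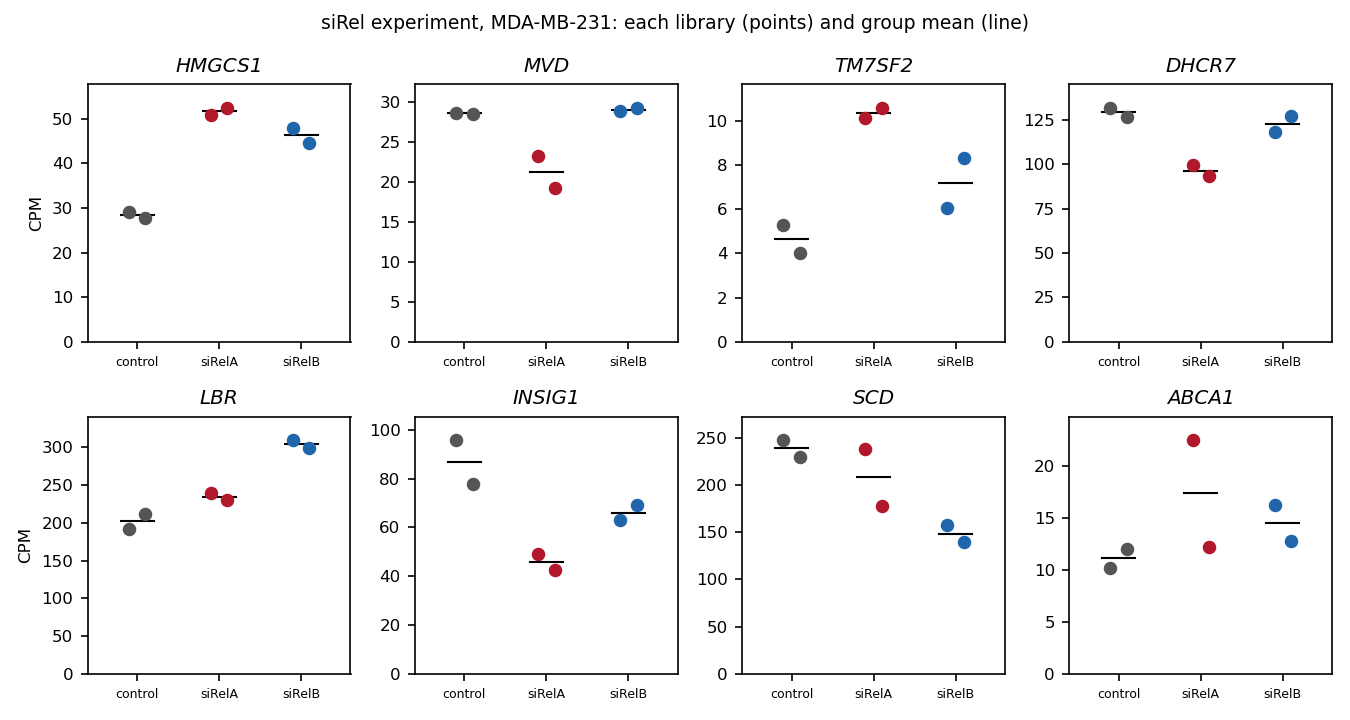
Library-scaled counts (CPM, y axes starting at 0) of 8 genes in each library of the siRel experiment, with the mean of each group as a line. HMGCS1 lies between 44.7 and 52.4 CPM in the 4 knockdown libraries and at 27.7 and 29.1 CPM in the controls, and SCD is lowest in the siRelB libraries, at 157 and 139 CPM.

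Knockdown of RELB in the same line was compared with the same 2 control libraries, so the siRelA and siRelB changes are not independent of each other. HMGCS1 rose 1.63-fold and LBR 1.50-fold, and SCD, which makes monounsaturated fatty acids, fell 1.61-fold. Of the 31 genes tested 3 rose and 3 fell, beside 18.3% of all genes called, 7.45% higher and 10.8% lower. The median change of the 31 genes was 0.11 and that of all genes 0.01.

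HMGCS1 was at 47.9 and 44.7 CPM under siRelB, above both controls, a change of 0.71 ± 0.11 (adjusted p = 0.00025). FDFT1 rose by 0.36 ± 0.09 (adjusted p = 0.011). LBR, the lamin B receptor, is a protein of the inner nuclear membrane and a sterol C14 reductase like TM7SF2. It was at 192 and 212 CPM in the controls and at 309 and 298 CPM under siRelB. The groups were well apart, and the change was 0.59 ± 0.08 (adjusted p = 9.1e-05). TM7SF2 was at 6.05 and 8.33 CPM and was not called (0.63 ± 0.23, adjusted p = 0.073). SQLE, at 23.3 and 28.7 CPM, spanned the control values.

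SCD was at 247 and 230 CPM in the controls and at 157 and 139 CPM under siRelB, without overlap. It fell by 0.69 ± 0.11 (adjusted p = 0.00042). The desaturase of sterol synthesis SC5D fell by 0.37 ± 0.12 (adjusted p = 0.045), and INSIG1, at 63.2 and 69.0 CPM, by 0.39 ± 0.11 (adjusted p = 0.023). SREBF1 was at 104 and 91.4 CPM, SREBF2 at 145 and 141 CPM and SCAP at 107 and 123 CPM, and none of the 3 was called. No trafficking or efflux gene was called. ABCA1 was at 16.3 and 12.8 CPM (0.39 ± 0.23) and NPC1 at 169 and 163 CPM (0.23 ± 0.09). HMGCS1, LBR and SCD kept their calls under all 12 alternatives. FDFT1 lost its call without control replicate 2 (0.28) or siRelB replicate 2 (0.33), INSIG1 without control replicate 1 (-0.25) or siRelB replicate 1 (-0.34), and SC5D without either control (-0.46 and -0.30) or siRelB replicate 1 (-0.20) or with upper-quartile scaling. Marker genes also moved under siRelB. The summed level of 5 mesenchymal markers was between 1374 and 1531 CPM in the controls and between 1245 and 1254 CPM under siRelB. SNAI2 (-0.63), ZEB1 (-0.45) and FN1 (-0.42) were called lower. VIM, which made up most of that sum, was not called (-0.14), nor was CDH2. EPCAM (-0.66) was called lower too, while the summed level of the epithelial and basal markers was between 1252 and 1352 CPM in the controls and between 1353 and 1366 CPM under siRelB. PECAM1, an endothelial gene, went from 49 and 53 reads to 14 and 11 (-1.77). Their part in the changes above was not tested.

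The siRelA and siRelB libraries were also compared directly. Of the 31 genes 2 were higher and 7 lower under siRelA, beside 29.9% of all genes called, 16.0% higher and 14.0% lower. INSIG1 was lower under siRelA than under siRelB by 0.53 ± 0.12 on the log2 scale (-0.53, adjusted p = 0.0025). INSIG2 was at 24.7 and 27.3 CPM under siRelA and at 35.8 and 38.3 CPM under siRelB, a difference of -0.51 ± 0.12 (adjusted p = 0.0043). MYLIP, which marks lipoprotein receptors for degradation, was at 17.6 and 15.0 CPM against 25.0 and 22.9 CPM, a difference of -0.55 ± 0.15 (adjusted p = 0.0091). Each of these 3 genes had both siRelA values under both siRelB values. LBR (-0.37), DHCR7 (-0.35), MVD (-0.45) and ACAT2 (-0.26) were lower too, and SCD (0.49) and SC5D (0.35) were higher. HMGCS1 differed by 0.16 ± 0.11 and was not called (adjusted p = 0.29), nor were SQLE (-0.00), SREBF1 (-0.03), SREBF2 (0.17), SCAP (-0.01), NPC1 (-0.10) and ABCA1 (0.26).

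INSIG1, INSIG2 and LBR kept their calls in this direct comparison under all 12 alternatives. SCD lost its call without siRelA replicate 1 (0.25), DHCR7 without siRelB replicate 2 (-0.29), MVD without siRelA replicate 2 (-0.32) or siRelB replicate 2 (-0.43), MYLIP without siRelA replicate 2 (-0.44) or siRelB replicate 1 (-0.49), SC5D without siRelA replicate 1 (0.31) or siRelB replicate 1 (0.18), and ACAT2 without any 1 of the 4 (-0.31 to -0.21). With all libraries kept, ACAT2 was lost with no filter on low counts (-0.25) and SC5D when only the 4 libraries compared were fitted (0.34).

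Knockdown of EZH2 in MDA-MB-231 raised LBR most among the 31 genes tested and raised ABCA1, while INSIG1, DHCR7, SCD and FASN fell. Of the 31 genes tested 7 rose and 10 fell (limma, adjusted p under 0.05). This knockdown changed most genes, with 56.6% of 12356 genes called, 29.4% higher and 27.1% lower, so 17 of 31 is close to the background. The median change was -0.10 for the 31 genes and 0.00 for all genes. Differences in this experiment are on the variance-stabilised log2 scale, and levels are normalised counts. That scale understates changes, most of all where reads are few.

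LBR was at 1830 and 1801 normalised counts in the controls and at 6389 and 6222 under siEZH2. The knockdown libraries stood 3.47-fold above the controls, with a change of 1.66 ± 0.05 (adjusted p = 6.1e-11). ABCA1 was at 215 and 226 in the controls and at 567 and 538 under siEZH2, also without overlap. The ratio of the means was 2.51 and the change on the stabilised scale 0.82 ± 0.06 (adjusted p = 1.8e-07). From recovered read counts with edgeR it was 1.31. NPC1 was at 2929 and 3035 against 3766 and 3726 and rose by 0.30 ± 0.06 (adjusted p = 0.00057). INSIG2 rose by 0.36 ± 0.07 (adjusted p = 0.00054). PMVK (0.20), SREBF1 (0.19) and the lanosterol synthase LSS (0.14) were called higher by small amounts.

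INSIG1 was at 1575 and 1443 in the controls and at 680 and 690 under siEZH2. It fell 2.20-fold, by 0.91 ± 0.06 on the stabilised scale (adjusted p = 4.3e-08). DHCR7 was at 1973 and 2125 against 1314 and 1375 and fell by 0.53 ± 0.06 (adjusted p = 8.1e-06). In both genes each knockdown library lay under both controls. HMGCS1 was at 906 and 850 against 738 and 708, a smaller fall of 0.22 ± 0.06 (adjusted p = 0.0054). SQLE was at 702 and 654 against 673 and 632, overlapped and was not called (-0.04 ± 0.06). FASN fell by 0.49 and SCD by 0.48. FDPS (-0.28), IDI1 (-0.27), STARD4 (-0.27), FDFT1 (-0.26) and MVK (-0.22) were also called lower. SREBF1 was at 616 and 685 against 771 and 785, SREBF2 at 1204 and 1261 against 1147 and 1058, and SCAP at 2468 and 2419 against 2366 and 2503. SREBF2 (-0.13) and SCAP (-0.01) were not called.

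Median-centring of the libraries gave 4 genes higher and 12 lower, and quantile normalisation 5 and 12, in place of 7 and 10. Among all genes median-centring gave 3184 higher and 3910 lower and quantile normalisation 3322 and 3792, in place of 3636 and 3354. LBR, ABCA1, NPC1, INSIG2, INSIG1, DHCR7, SCD, FDPS, IDI1 and FDFT1 kept their calls under all 13 alternatives. HMGCS1 lost its call without control replicate 1 (-0.18), as did FASN (-0.45). MVK was lost without either control (-0.23 and -0.21) or siEZH2 replicate 1 (-0.13), STARD4 without either control (-0.25 and -0.28) or siEZH2 replicate 2 (-0.23), and PMVK without control replicate 2 (0.14) or siEZH2 replicate 2 (0.15). LSS was lost without control replicate 1 (0.10) or siEZH2 replicate 2 (0.11), and SREBF1 without control replicate 1 (0.14) or either siEZH2 library (0.20 and 0.18). PMVK, LSS and SREBF1 also lost their calls with all libraries kept, each of them with no filter on low values and after median-centring, so that they failed under 5, 7 and 6 of the 13 alternatives. FASN was also lost with a robust variance.

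**Figure D3:**
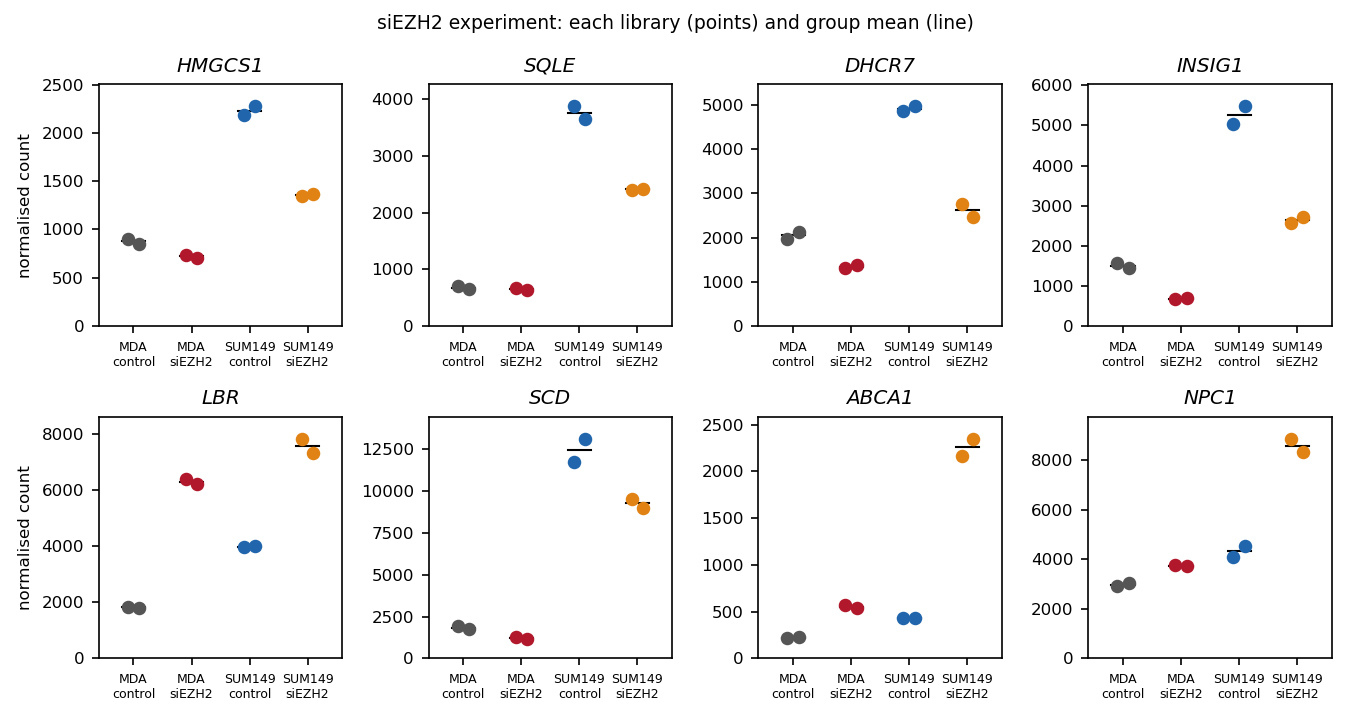
Normalised counts (y axes starting at 0) of 8 genes in each library of the siEZH2 experiment, with the mean of each group as a line, for MDA-MB-231 (MDA) and SUM149. LBR and ABCA1 are higher and INSIG1 and DHCR7 lower under siEZH2 in both lines, and SQLE is lower under siEZH2 in SUM149, at 2405 and 2420 against 3873 and 3647.

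In the SUM149 libraries, siEZH2 lowered most genes of the synthesis route and raised ABCA1, NPC1, NPC2 and MYLIP. ABCA1 rose 5.25-fold, NPC1 1.99-fold and LBR 1.90-fold, whereas INSIG1, DHCR7, HMGCS1, SQLE and IDI1 all fell. Of the 31 genes tested 6 rose and 19 fell, beside 58.0% of all genes called, 29.4% higher and 28.6% lower. The lower calls (19 of 31) are thus a larger share than in all genes and the higher calls (6 of 31) a smaller one. These are counts without a test of the list, which was chosen with earlier results of these data known. The median change was -0.26 for the 31 genes and -0.00 for all genes.

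In the mevalonate arm 6 of 7 genes fell and PMVK was not called. HMGCS1 was at 2181 and 2273 normalised counts in the controls and at 1350 and 1364 under siEZH2, a fall of 0.62 ± 0.06 (adjusted p = 9.3e-07). IDI1, the isopentenyl diphosphate isomerase, was at 3403 and 3652 against 2294 and 2449 and fell by 0.52 ± 0.06 (adjusted p = 5.0e-06). Both genes were lower in each knockdown library than in either control. MVD (-0.40), FDPS (-0.34), MVK (-0.23) and ACAT2 (-0.16) were called lower as well.

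Among the 12 squalene and sterol genes 8 fell, LBR rose, and LSS, NSDHL and EBP were not called. SQLE was at 3873 and 3647 against 2405 and 2420 and fell 1.56-fold, by 0.59 ± 0.06 (adjusted p = 1.8e-06). DHCR7 was at 4871 and 4966 against 2769 and 2472 and fell 1.88-fold, by 0.85 ± 0.06 (adjusted p = 1.1e-07). The groups of both genes were far apart. CYP51A1 (-0.45), SC5D (-0.37), TM7SF2 (-0.37), HSD17B7 (-0.32), FDFT1 (-0.31) and MSMO1 (-0.30) fell too. TM7SF2 has few reads here, at 75.2 and 91.4 against 39.2 and 32.4 normalised counts, and its change from recovered read counts was -1.21. LBR ran the other way, at 3961 and 4014 against 7834 and 7339, a rise of 0.88 ± 0.05 (adjusted p = 1.7e-08).

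INSIG1 was at 5042 and 5472 in the controls and at 2559 and 2716 under siEZH2. It fell 1.99-fold, by 0.93 ± 0.06 (adjusted p = 4.3e-08). SREBF2 was at 2825 and 2968 against 2484 and 2299 and fell by 0.25 ± 0.06 (adjusted p = 0.0026). SCAP was at 2785 and 2628 against 2316 and 2134 and fell by 0.26 ± 0.06 (adjusted p = 0.0017). Neither gene overlapped between the groups. SREBF1 was at 1346 and 1144 against 1369 and 1468, a change of 0.16 ± 0.07 that was not called (adjusted p = 0.071). INSIG2 rose by 0.30 ± 0.07, so the INSIG genes went opposite ways in both lines. SCD fell by 0.41 ± 0.07. FASN was called lower (-0.34 ± 0.12), but its controls were at 19287 and 12954 and its knockdown libraries at 12454 and 12450; without control replicate 1 the change was -0.06.

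Of the trafficking and efflux genes, 4 of 5 tested rose and STARD4 was not called. ABCA1 was at 429 and 431 in the controls and at 2164 and 2350 under siEZH2. Its change of 1.89 ± 0.06 (adjusted p = 2.5e-10) was the largest rise among the 31 genes. NPC1 was at 4102 and 4546 against 8874 and 8323 and rose by 0.95 ± 0.06 (adjusted p = 2.6e-08). In both genes the knockdown libraries lay above both controls. NPC2 rose by 0.46 ± 0.07 (adjusted p = 7.2e-05) and MYLIP by 0.28 ± 0.07 (adjusted p = 0.0039). ABCG1, left out by the filter, was listed at 1.58 and 4.49 normalised counts in the controls and at 23.6 and 27.5 under siEZH2. In MDA-MB-231 it was at 0.94 and 1.73 against 4.83 and 10.8, and in the count table it had 3 to 9 reads per library. Given these few reads, no fold is given for ABCG1.

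Of the 25 calls in SUM149, 21 stayed under all 13 alternatives. FASN was also lost without either siEZH2 library (-0.34 in both), ACAT2 without control replicate 2 (-0.12) or either siEZH2 library (-0.18 and -0.14), MVK without control replicate 2 (-0.22) or siEZH2 replicate 2 (-0.14), and MYLIP without siEZH2 replicate 2 (0.19). FASN failed under 7 of the 13 alternatives in all, 4 of them with all libraries kept, and ACAT2 also on recovered reads (-0.17). The summed level of 5 mesenchymal markers went from 270226 and 291471 to between 483090 and 504460 normalised counts under siEZH2 in SUM149. In MDA-MB-231 it went from between 39583 and 41286 to between 61197 and 61394. FN1 made up most of it in SUM149, at 200019 and 218257 against 385887 and 409539. VIM made up most of it in MDA-MB-231, at 35175 and 33519 against 51055 and 51272. VIM, FN1, SNAI2 and ZEB1 were called higher in both lines, while CDH2 was lower in MDA-MB-231 (-0.34) and not called in SUM149 (0.06). The sum of 5 fibroblast markers went from between 2217 and 2351 to between 4619 and 4865 in SUM149, mostly DCN, and from between 324 and 342 to between 642 and 690 in MDA-MB-231. There COL1A2 (38.8 and 44.1 against 252 and 259) and PDGFRB (35.0 and 40.7 against 172 and 215) rose. COL1A1 (184 and 183 against 173 and 162) and LUM (65.4 and 70.4 against 45.3 and 52.3) did not, nor did DCN, which had few reads there. The sum of the epithelial markers was between 14554 and 14957 in the SUM149 controls and between 14977 and 15652 under siEZH2. In MDA-MB-231 it went from between 35034 and 36242 to between 26259 and 27809. In SUM149 KRT5 (0.73), KRT8 (0.72) and CDH1 (0.21) were called higher and EPCAM (-2.16) and KRT18 (-0.37) lower. In MDA-MB-231 EPCAM (-1.03), KRT18 (-0.65) and CDH1 (-0.35) were called lower, and KRT5 and KRT8 were not called. The part of these shifts in the changes above was not tested. Fewer cells of a type and less RNA per cell cannot be told apart in such bulk libraries.

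Set side by side, 4 genes rose in both lines under siEZH2 (INSIG2, LBR, NPC1 and ABCA1) and 9 fell in both (HMGCS1, MVK, IDI1, FDPS, FDFT1, DHCR7, INSIG1, FASN and SCD). No gene of the list was called in opposite directions. Among all genes 19.9% were called higher in both lines, 18.8% lower in both and 1.58% opposite. The lines have their own controls. On the stabilised scale the INSIG1 changes differed between them by -0.01 (limma, adjusted p = 0.93). As ratios of the means, INSIG1 fell 2.20-fold in MDA-MB-231 and 1.99-fold in SUM149.

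The difference of the siEZH2 effect between the lines was tested as an interaction, SUM149 minus MDA-MB-231. It was called for 12 of the 31 genes, 3 higher and 9 lower, beside 21.5% of all genes, 11.2% higher and 10.4% lower. ABCA1 rose more in SUM149 by 1.07 ± 0.09 (adjusted p = 3.9e-06), as did NPC1 by 0.64 ± 0.08 (adjusted p = 0.00013) and NPC2 by 0.43 ± 0.10 (adjusted p = 0.0066). LBR rose less in SUM149, with a difference of -0.78 ± 0.07 (adjusted p = 1.0e-05), from control levels that were 2.20-fold higher there. SQLE differed by -0.55 ± 0.08 (adjusted p = 0.00039), HMGCS1 by -0.41 ± 0.08 (adjusted p = 0.0029) and SC5D by -0.40 ± 0.08 (adjusted p = 0.0029). MVD (-0.38), DHCR7 (-0.32), CYP51A1 (-0.32), IDI1 (-0.26) and SCAP (-0.25) were also called. The other 19 genes, SREBF1 and SREBF2 included, were not called.

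ABCA1, NPC1, LBR, SQLE, HMGCS1 and SC5D kept the interaction call under all 16 alternatives. NPC2 lost it without MDA-MB-231 control replicate 2 (0.39) and CYP51A1 without the same library (-0.27). MVD passed narrowly (adjusted p = 0.04995) and, with IDI1, lost its call without any of 6 libraries (-0.42 to -0.23 and -0.30 to -0.21). SCAP lost it without any of 5 libraries (-0.26 to -0.20), and DHCR7 without MDA-MB-231 control replicate 1 (-0.27), MDA-MB-231 siEZH2 replicate 2 (-0.29) or SUM149 siEZH2 replicate 2 (-0.25). With all libraries kept, MVD, IDI1 and SCAP also lost the call with no filter on low values, after median-centring, after quantile normalisation and on recovered reads. IDI1 and SCAP lost it with no variance trend, and DHCR7 after quantile normalisation (-0.24) and on recovered reads (-0.27). In all, the call was lost under 11 of the 16 alternatives for IDI1, 10 for MVD, 10 for SCAP and 5 for DHCR7. Among genes not called, TM7SF2 (-0.27) was called in 3 alternatives and stood at -0.98 on recovered reads, and PMVK and HSD17B7 were each called in 3. With no filter, after median-centring or on recovered reads, 6 genes were called lower in place of 9.

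**Figure D4:**
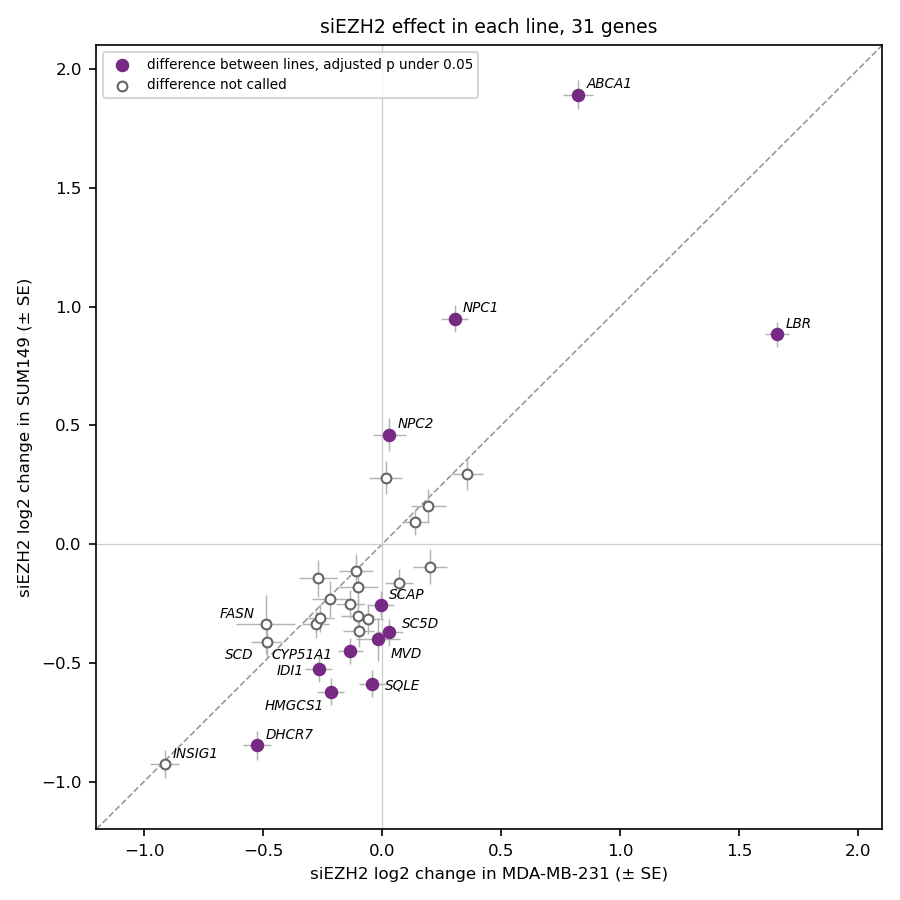
siEZH2 log2 change in MDA-MB-231 (x axis) against that in SUM149 (y axis) for the 31 genes tested, with standard errors. The dashed line marks equal change, and filled points passed the test of the difference between the lines. ABCA1 (0.82 and 1.89) and NPC1 (0.30 and 0.95) lie above the line, LBR (1.66 and 0.88) and most synthesis genes below it, and INSIG1 (-0.91 and -0.93) on it.

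The control libraries of the lines were compared within the siEZH2 experiment. Most genes differ between lines, with 82.8% of all genes called, 41.3% higher in SUM149 and 41.5% lower. Of the 31 genes 19 were higher in SUM149 and 10 lower, and FDPS and EBP were not called. SCD was highest relative to MDA-MB-231, at 11750 and 13135 normalised counts against 1913 and 1738, a difference of 2.60 ± 0.07 (adjusted p = 2.0e-13). FASN was at 19287 and 12954 against 4061 and 3820 (1.93 ± 0.12). Both fatty acid enzymes were thus several times higher in SUM149, without overlap.

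Of the synthesis genes SQLE differed most, at 3873 and 3647 in SUM149 against 702 and 654 (2.11 ± 0.06, adjusted p = 4.5e-13). MSMO1 was at 4657 and 5029 against 1872 and 1586 (1.36). NSDHL, the sterol dehydrogenase, was at 2270 and 2465 against 850 and 879 (1.23). These genes did not overlap between the lines. DHCR7 (1.16), HMGCS1 (1.13) and CYP51A1 (1.05, at 8906 and 9072 against 4370 and 4061) were about 1 log2 unit higher in SUM149, with LBR (1.03) and IDI1 (0.90) close by. FDFT1 was at 3525 and 3728 against 1773 and 1833 (0.91) and MVD at 682 and 509 against 282 and 292 (0.68). The higher level in SUM149 was not general. LSS was lower there, at 1272 and 1304 against 2701 and 2889 (-0.98), and SC5D at 701 and 739 against 1622 and 1618 (-0.95).

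Among the sensors INSIG1 was 1.64 higher on the log2 scale, SREBF2 1.08 and SREBF1 0.73, while SCAP differed by 0.13, which was lost without any of 3 libraries (0.09 to 0.15). INSIG2 was lower, at 186 and 176 against 418 and 388 (-0.66). NPC2 was the gene most reduced on the stabilised scale, at 2222 and 2631 against 5304 and 5641 (-1.09 ± 0.07). STARD4 was at 361 and 474 against 937 and 912 (-0.84). As ratios of the means the reductions were close, with NPC2 at 2.255, SC5D at 2.249, INSIG2 at 2.23, STARD4 at 2.215, LSS at 2.17 and TM7SF2 at 2.042. ABCA1 (0.58) and NPC1 (0.50) were higher in SUM149.

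**Figure D5:**
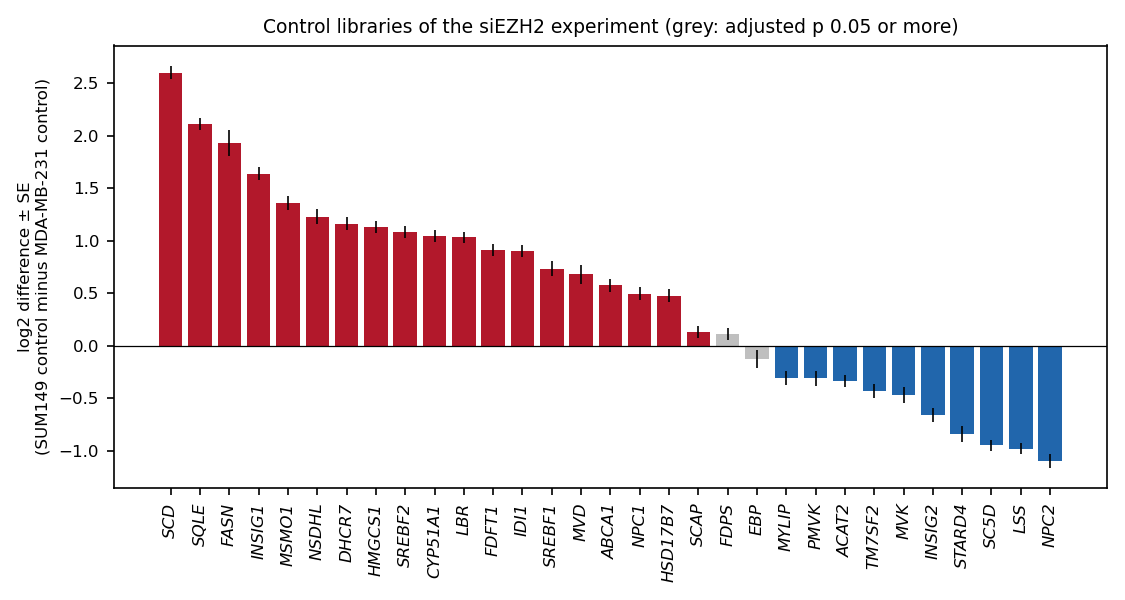
Difference between the control libraries of SUM149 and MDA-MB-231 (y axis, log2 scale, ± standard error) for each of the 31 genes tested, in order of size. Red bars are higher and blue bars lower in SUM149, and grey bars were not called. The order runs from SCD at 2.60 to NPC2 at -1.09, and LSS and SC5D lie next to NPC2 at the low end.

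A second list of 39 genes of the wider pathway (fatty acid synthesis, prenylation, sterol transport, lipoprotein receptors and liver X receptors) was counted in the same fits; the alternatives were not run on it. Under siRelA 9 of the 39 rose and 6 fell, beside 8.82% and 10.2% of all genes. ELOVL5, a fatty acid elongase, fell by 1.77 ± 0.09 (adjusted p = 6.3e-10), and NR1H2, the liver X receptor beta, by 1.01 ± 0.09 (adjusted p = 9.1e-07). GRAMD1C, a sterol transfer protein, rose by 1.54 ± 0.45 (adjusted p = 0.024). Under siRelB 2 rose and 6 fell, beside 7.45% and 10.8% of all genes. Those that fell included the endosomal sterol transporter STARD3 (-1.18 ± 0.11) and the prenyltransferase subunit PGGT1B (-0.91 ± 0.16). Between siRelA and siRelB 8 of the 39 were higher and 4 lower under siRelA, beside 16.0% and 14.0% of all genes. ELOVL5 (-1.96) and NR1H2 (-0.99) were lower, and STARD3 (1.18), the malic enzyme ME1 (1.12), the lipoprotein receptor LRP8 (0.99) and PGGT1B (0.80) were higher.

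Under siEZH2 22 of the 39 rose and 9 fell in MDA-MB-231, beside 29.4% and 27.1% of all genes. In SUM149 18 rose and 5 fell, beside 29.4% and 28.6%. LIPA, the lysosomal lipase that frees cholesterol from its esters, rose by 1.46 ± 0.06 in MDA-MB-231 (adjusted p = 1.1e-09) and by 1.24 ± 0.06 in SUM149 (adjusted p = 6.5e-09). FNTB, a farnesyltransferase subunit, rose by 0.76 in MDA-MB-231. In SUM149 GRAMD1B, which carries cholesterol from the plasma membrane to the endoplasmic reticulum, rose by 1.05 and the lipoprotein receptor LRP1 by 0.98. The interaction was called for 5 higher and 2 lower, beside 11.2% and 10.4% of all genes, with GRAMD1B at 0.82 ± 0.11. Between the controls 15 were higher in SUM149 and 18 lower, beside 41.3% and 41.5% of all genes. Those of at least 0.75 in size that were higher were GRAMD1B (2.72), FADS1 (1.28), RNF139 (1.26), GGPS1 (1.19), GPAM (1.07), FNTA (1.04), MBTPS1 (0.98), ACSL3 (0.87) and LPCAT3 (0.76). Those lower were RXRA (-1.62), VLDLR (-1.53), SOAT1 (-1.21), LRP1 (-0.99), ELOVL6 (-0.98), STARD3 (-0.78), ACSS2 (-0.76) and NR1H2 (-0.75).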

How the data were processed

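For the siRel experiment the authors deposited whole-number read counts per Ensembl gene; tools listed per the submitters' processing notes are featureCounts 1.5.0-p3, HISAT2 2.0.5 and DESeq2 1.20.0, with build hg19. For the siEZH2 experiment the authors deposited variance-stabilised log2 values per gene symbol, normalised between libraries; those listed, also for hg19, are Salmon, STAR 2.5.2b, DESeq2 and cutadapt. Not given in the sources used here: each tool's role, the annotation release and the strand setting. Without strand, reads of a gene and of an opposite-strand neighbour cannot be told apart, which touches 37.7% of the exon bases of HMGCS1, 26.0% of ACAT2, 18.6% of FDPS and 15.0% of IDI1. EBP shares 36.4% with a gene on its own strand, and CYP51A1 overlaps genes on both strands. Positions and exon lengths are from GENCODE v44 on GRCh38, not converted from hg19. The 30 chromatin libraries were not analysed here.

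Counts were fitted with edgeR 4.0.16 (quasi-likelihood, TMM, default filter, group term, all 6 libraries), which tested 15930 genes with 3 residual degrees of freedom. The log2 values were fitted with limma 3.58.1 (eBayes with trend, all 8 libraries) for 12356 genes at least 1 above the lowest value of 7.12 in at least 2 libraries, with 4 residual degrees of freedom. Tests were two-sided, with Benjamini-Hochberg adjustment over all genes tested and calls at adjusted p under 0.05. Normalised counts invert the stabilising transformation, whose form was inferred from the values. Multiplied back to reads, 81.2% to 84.7% of low values (under 30) came within 0.1 of a whole number, so recovered reads are approximate. On them edgeR called 7 of the 32 genes higher and 11 lower in MDA-MB-231 and 8 and 18 in SUM149.

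The members and gene lists were chosen with earlier results of these data known. Library values are given for genes called with a change of at least 0.5 and for HMGCS1, SQLE, INSIG1, SREBF1, SREBF2, SCAP, ABCA1, ABCG1 and NPC1; genes of the second list are named where called with at least 0.75. Scripts were tested on simulated data. Alternatives were other scalings, filters, variance models, DESeq2 1.42.0, the replicate block and leaving out each library. The 2 libraries of a group limit precision. The p-values rest on a spread between duplicates that was pooled over all libraries of an experiment and drawn toward that of other genes. They do not cover variation beyond such duplicates. R was 4.3.3, Python 3.11.15, pandas 2.3.3, numpy 2.4.6 and matplotlib 3.10.9.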

Additional observations from a re-analysis of the deposited data

Results flagged for a closer look

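The effect of siEZH2 differed between the lines for 12 of the 31 genes by the interaction term of the limma fit, SUM149 minus MDA-MB-231. Among all genes 21.5% were called, 11.2% higher and 10.4% lower. The difference was positive for ABCA1 (1.07), NPC1 (0.64) and NPC2 (0.43), of which ABCA1 and NPC1 rose in both lines and NPC2 was called in SUM149 only. It was negative for LBR (-0.78), which rose less in SUM149. It was also negative for the synthesis genes SQLE (-0.55), HMGCS1 (-0.41), SC5D (-0.40), MVD (-0.38), CYP51A1 (-0.32), DHCR7 (-0.32) and IDI1 (-0.26) and for SCAP (-0.25). Of the 16 alternatives, 11 lost the call of IDI1, 10 that of MVD, 10 that of SCAP and 5 that of DHCR7. The calls of NPC2 and CYP51A1 were each lost under 1. EZH2 itself fell by 0.51 less in SUM149 on the same scale (adjusted p = 0.0035), and RELB by 0.52 less (adjusted p = 0.0044). The part of those gaps in these differences was not tested. Groups of 2 libraries are too small for the search for outlying libraries.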

How the results depend on the processing

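None of the recomputed values reversed the direction of a called gene. With upper-quartile scaling 6 genes were called higher and 2 lower under siRelA, beside 1677 and 1389 of all genes. Between siRelA and siRelB 1 was higher when only the 4 libraries compared were fitted. Under siEZH2 in MDA-MB-231 4 were higher and 12 lower after median-centring, beside 3184 and 3910 of all genes. When each library was left out in turn, the genes called higher and lower ranged from 2 to 4 and 2 to 6 under siRelA, from 2 to 4 and 1 to 3 under siRelB, and from 0 to 3 and 4 to 7 between them. They ranged from 4 to 6 and 6 to 10 for MDA-MB-231 under siEZH2, from 5 to 7 and 16 to 20 for SUM149, from 2 to 4 and 5 to 9 for the interaction, and from 18 to 19 and 10 to 10 between the controls. The lone library left in a group was assumed to vary like the other groups. With recovered reads the interaction called 714 of all genes lower in place of 1281.

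The labels do not say that replicate numbers mark a shared day, and deviations of libraries with the same number correlated between -0.207 and 0.093. With the replicate block the counts higher and lower were 3 and 4 under siRelA, 3 and 3 under siRelB, 2 and 8 between them, 7 and 10 for MDA-MB-231 under siEZH2, 6 and 20 for SUM149, 3 and 9 for the interaction and 19 and 10 between the controls. Under siRelA the calls of INSIG2 and STARD4 were lost with the block. ABCG1 had too few reads to pass the filter of the main fits. It entered only the alternatives with no filter and on recovered reads, and its values there are not given.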
